A study of Homo sapiens with 9 samples.

Results

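The 2 lists of N6-methyladenosine (m6A) sites obtained after knockdown of SETD2 with 2 different short hairpin RNAs were set directly against each other, without the control list. HepG2, an established line from a human hepatocellular carcinoma, was infected with lentivirus carrying shSETD2#1 (hairpin 1) or shSETD2#2 (hairpin 2) and kept under puromycin, so each hairpin is a selected population of stably transduced cells. The labels name 3 replicates per hairpin, 6 samples in all, and assign 1 list to the 3 replicates of each, so lists are treated as pooled and no value has a replicate error. A member is a listed base of the hg19 build, and a base was shared when chromosome, position and strand were all equal. The hairpin 1 list held 482 positions and the hairpin 2 list 697, which together make 1060 different positions among the 4429 of the whole series. The level of the SETD2 transcript was not analysed here, so that the cells were depleted of it rests on the labels alone. No gene annotation of hg19 was used here, so liver markers were not checked and nuclear sites are named by position.

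m6A is placed on nascent mRNA by the METTL3-METTL14 methyltransferase with its partner WTAP, mostly at an adenosine followed by a cytidine, and reader proteins then act on splicing, translation and decay. SETD2 trimethylates H3K36 along genes that are being transcribed, and the study asks how this histone mark relates to m6A. With 2 hairpins against the same gene, what both share can be seen apart from what is found with a single hairpin. The series calls the assay miCLIP, where C-to-T changes in reads mark the base beside a crosslinked antibody, while the sample titles say m6A-seq and the protocol names no crosslinking. The sites are m6A sites as the authors' lists name them. Each has a score, a whole number of at least 3, read here as a count of reads at that base. Under this reading, numbers of C-to-T reads could be chosen that put the authors' site numbers in exact order. Those numbers were fitted to the order, so the order is no separate evidence for the reading. The number of C-to-T reads behind a site was rebuilt from that order and is an inference, given as rebuilt.

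Most positions were found with a single hairpin. The lists shared 119 positions, which is 24.7% of the hairpin 1 list (interval 20.9 to 28.8) and 17.1% of the hairpin 2 list (14.4 to 20.1). Hairpin 1 alone had 363 positions and hairpin 2 alone had 578. Intervals of shares are 95% exact Clopper-Pearson intervals, cover counting error only and treat positions as independent, which neighbours are not. Of the shared positions, 61 were on the plus strand and 58 on the minus strand. Chromosome M, the mitochondrial genome, which encodes rRNAs of the mitochondrial ribosome and subunits of the respiratory chain, had 12 shared positions, out of 24 with hairpin 1 and 26 with hairpin 2. Of the nuclear positions 107 were shared, 23.4% of 458 with hairpin 1 and 15.9% of 671 with hairpin 2. Mitochondrial positions also had higher scores, with a median of 151 against 10 in the nuclear part of the hairpin 1 list and 168.5 against 14 with hairpin 2, and the part of score in the difference was not tested. Among the nuclear chromosomes with 20 or more positions in both lists, the shared part of the hairpin 1 list ran from 11.5% on chromosome 3 (3 of 26) to 30.8% on chromosome 2 (12 of 39). Chromosome 11 had 1 shared position among 10 with hairpin 1 and 32 with hairpin 2, and chromosome 22 had 0 among 11 and 10.

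Positions with higher scores had the larger shared part. In the hairpin 1 list 6 of 99 positions with a score of 3 or 4 were also listed with hairpin 2 (6.06%, interval 2.26 to 12.7), against 25 of 58 with a score of 100 or more (43.1%, 30.2 to 56.8). In the hairpin 2 list these were 6 of 156 (3.85%, 1.42 to 8.18) and 48 of 117 (41.0%, 32.0 to 50.5). The median score of shared positions was 32 with hairpin 1 and 65 with hairpin 2, while the positions of a single list had medians of 8 and 12.

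Recurrence also went with the number of rebuilt C-to-T reads, counted where that number had a single value. The 11 hairpin 1 and 21 hairpin 2 positions with bounds only are left out of the counts by read number. With hairpin 1, 40 of 301 positions with 1 such read were found again (13.3%, interval 9.67 to 17.7) and 22 of 30 with 5 to 9 reads (73.3%, 54.1 to 87.7). With hairpin 2 these were 39 of 409 (9.54%, 6.87 to 12.8) and 16 of 40 (40.0%, 24.9 to 56.7). At 10 or more reads the counts were small, with 5 of 9 for hairpin 1 (55.6%, 21.2 to 86.3) and 9 of 13 for hairpin 2 (69.2%, 38.6 to 90.9). The hairpin 1 positions with bounds only all had 10 or more reads by their lower bound, and most were shared. No trend is read from the 5 of 9, which leaves them out. Deep positions alone gave the same order. At scores of 100 or more, 1 of 14 hairpin 1 positions with 1 C-to-T read was shared, 8 of 21 with 2 to 4 reads and 14 of 20 with 5 or more. For hairpin 2 the counts at these scores were 9 of 36, 14 of 45 and 19 of 29. A high score with a single changed read thus had a shared part of 0.181% to 33.9% by its interval with hairpin 1 and 12.1% to 42.2% with hairpin 2. A high score with 5 or more had 45.7% to 88.1% and 45.7% to 82.1%. With 5 or more changed reads but scores under 100, 13 of 19 hairpin 1 positions (interval 43.4% to 87.4%) and 6 of 24 hairpin 2 positions (interval 9.77% to 46.7%) were in the other list. The 6 of 24 leaves out shared positions with bounds only, such as 31344301 of chromosome 2 (plus strand), with 21 to 43 of 43 reads changed with hairpin 2. Of the positions with a single rebuilt number, hairpin 1 had 110 shared and 361 unshared, and 1 C-to-T read lay under 36.4% and 72.3% of these. Hairpin 2 had 105 and 571, with 1 C-to-T read under 37.1% and 64.8%.

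**Figure D1:**
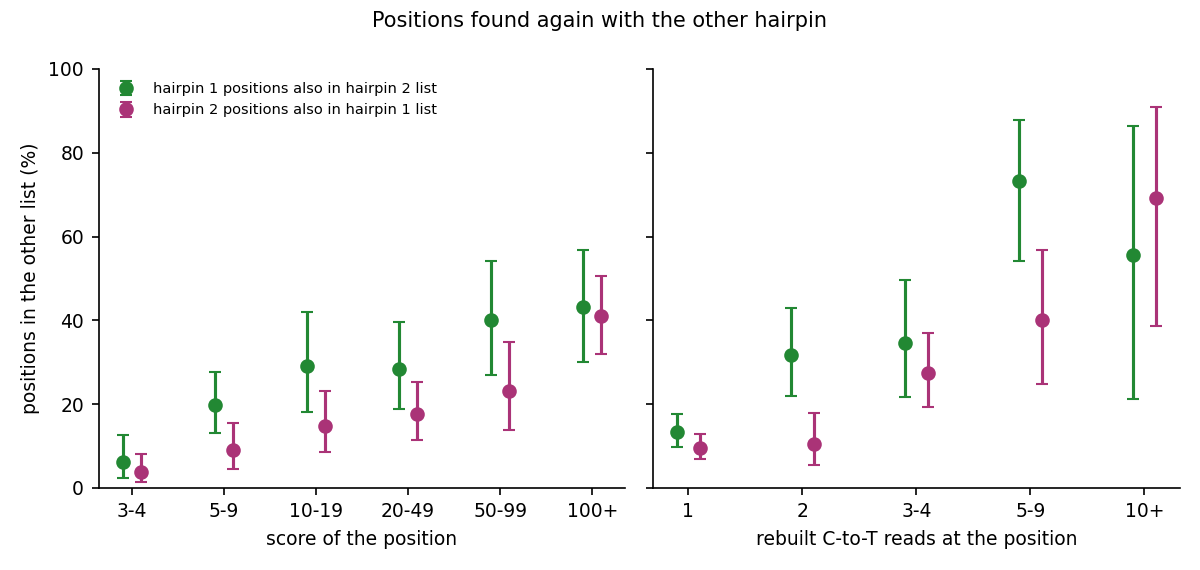
Percentage of positions of one hairpin list that the other list also held, by score of the position (left) and by rebuilt C-to-T reads (right). The right side takes only positions with a single rebuilt number. Points are shares and bars are 95% exact intervals: the share is 6.06% and 3.85% at scores of 3 or 4 and reaches 43.1% and 41.0% at scores of 100 or more for hairpins 1 and 2.

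At shared positions the score was mostly higher with hairpin 2. It was higher with hairpin 2 at 97 of the 119 positions, lower at 18 and equal at 4, and the median ratio of hairpin 2 to hairpin 1 was 1.70 (quartiles 1.11 to 2.64). The score was at least 2-fold higher with hairpin 2 at 55 positions, 46.2% of those compared, and at least 2-fold lower at 2, or 1.68%. Taking scores as reads, the 95% exact interval of the ratio lay above 1 at 64 positions, below 1 at 5 and held 1 at 50. Ratios are not scaled for sequencing depth, since read totals were not used here. The order of positions by score was alike, with a Pearson correlation of log2 scores of 0.91 and a Spearman correlation of 0.91 over the 119 positions. These positions share their library pools, and transcript abundance enters both scores. A shared position needs a score of at least 3 and at least 1 rebuilt changed read in both lists. Positions that were deep with one hairpin and unlisted with the other thus have no ratio, and their reads with the other hairpin are not known.

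**Figure D2:**
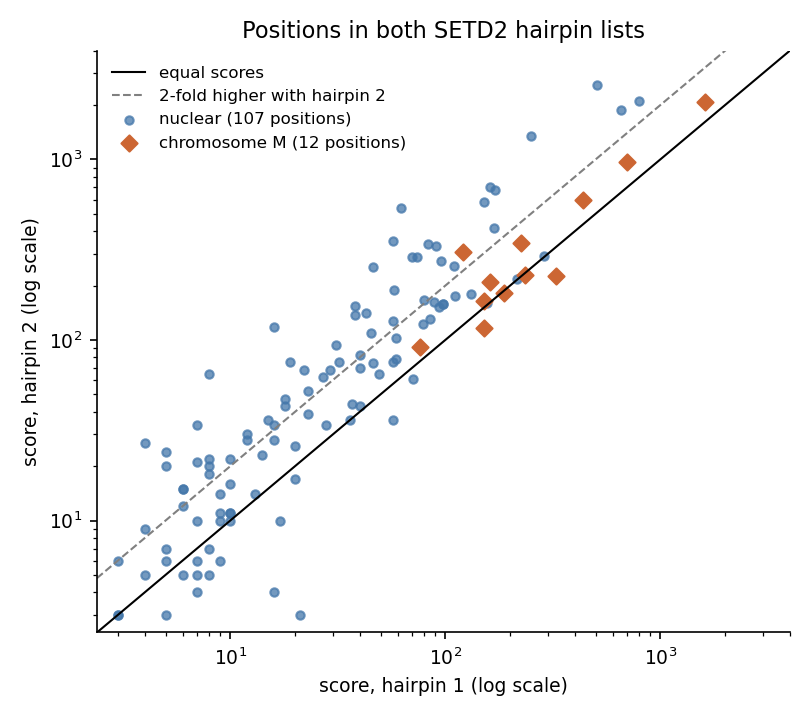
Score of each shared position with hairpin 1 (horizontal, log scale) and hairpin 2 (vertical, log scale), with a solid line for equal scores and a dashed line for scores 2-fold higher with hairpin 2. Most of the 107 nuclear positions lie above the solid line, and 11 of the 12 chromosome M positions lie below the dashed line.

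The ratio was higher at nuclear than at mitochondrial positions. The nuclear median was 2.00 (quartiles 1.19 to 2.87), with 54 of 107 positions at least 2-fold higher with hairpin 2 and 2 at least 2-fold lower. On chromosome M the median was 1.24 (0.973 to 1.37), with 1 of 12 positions at least 2-fold higher and 0 at least 2-fold lower. Mitochondrial positions are deep, so the same was computed for deep nuclear ones. With scores of 100 or more in both lists, all 14 nuclear positions were higher with hairpin 2, 9 of them at least 2-fold, with a median ratio of 2.57 (quartiles 1.42 to 3.92). The 11 mitochondrial positions at these scores had a median of 1.29 (0.971 to 1.37), with 7 higher and 4 lower. Summed over shared positions, nuclear scores were 6662 with hairpin 1 and 18445 with hairpin 2, a ratio of 2.77, and mitochondrial scores were 4378 and 5501, a ratio of 1.26. No test of this difference was made, because positions of 1 list are not replicates.

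**Figure D3:**
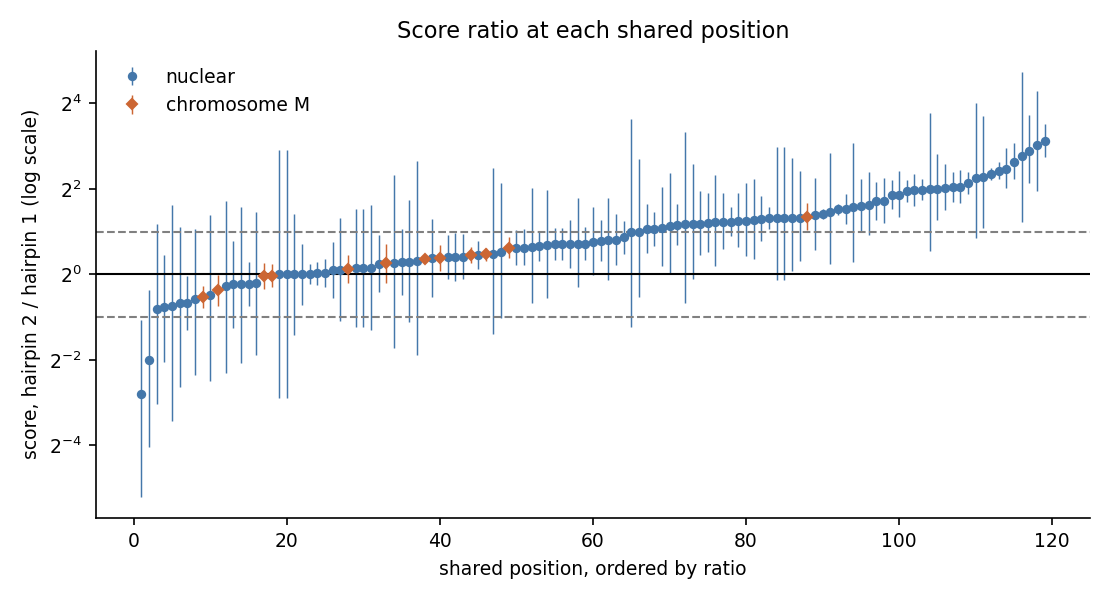
Ratio of the hairpin 2 to the hairpin 1 score (vertical, log scale) at each of the 119 shared positions in rising order, with 95% exact intervals for counting error. The solid line marks equal scores and dashed lines a 2-fold difference: 55 positions lie at or above the upper dashed line, 1 of them on chromosome M.

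The shared positions with the highest scores were 7 nuclear and 3 mitochondrial ones. The nuclear position 56538455 of chromosome 12 (plus strand) had a score of 792 with hairpin 1 and 2112 with hairpin 2, a ratio of 2.67 (interval 2.46 to 2.90). Position 26268505 of chromosome 8 (plus strand) went from 507 to 2586, a ratio of 5.10 (4.64 to 5.62), and held the highest score of the hairpin 2 list. Position 10244025 of chromosome 19 (minus strand) had 654 and 1877, a ratio of 2.87 (2.62 to 3.14). All of these were more than 2-fold higher with hairpin 2, and so were the remaining 4. Position 45826129 of chromosome 12 (plus strand) had scores of 250 and 1341, a ratio of 5.36 (4.68 to 6.16). Position 120927234 of chromosome 10 (minus strand) had 171 and 675, and position 23932805 of chromosome 3 (plus strand) 161 and 706, ratios of 3.95 and 4.39. Position 117075791 of chromosome 11 (minus strand), the shared position of that chromosome, had 151 and 582, a ratio of 3.85. The rebuilt C-to-T share at these 7 positions ran from 1.17% to 3.11% in the hairpin 1 list and from 0.851% to 1.89% in the other. The fitted background rate of C-to-T reads was 1.43% in the hairpin 1 list and 1.00% in the hairpin 2 list, so several of these shares lay near or below the rate.

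The 5 largest ratios came at low and at high scores, and position 45826129 of chromosome 12, described above, was among them. Of the 86 shared positions with scores of at least 10 in both lists, position 87004927 of chromosome 2 (plus strand) had the highest ratio, with scores of 62 and 538, or 8.68 (interval 6.66 to 11.5). There the rebuilt C-to-T reads were 6 and 9, so the share was 9.68% with hairpin 1 and 1.67% with hairpin 2. Position 72817297 of chromosome 16 (minus strand) had scores of 16 and 118, a ratio of 7.38 (4.36 to 13.3) on 1 changed read in each list. These positions gained far more reads than changed reads between the lists. Position 108155288 of chromosome 7 (minus strand) differed from them, with scores of 57 and 353, a ratio of 6.19 (4.67 to 8.34), and changed reads that went from 2 to between 16 and 18. Position 66444787 of chromosome 16 (plus strand) had 46 and 255, a ratio of 5.54 (4.04 to 7.76), with 1 and 5 changed reads.

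At the other end few positions had clearly lower scores with hairpin 2. The lowest ratio among these 86 was 0.588 at position 377579 of chromosome 20 (plus strand), from 17 to 10, with an interval of 0.241 to 1.36 that holds 1. Of these reads 6 and 3 carried the rebuilt change, a share far above the background rate in both lists. Position 2101562 of chromosome 19 (minus strand) had 57 and 36, a ratio of 0.632 (0.404 to 0.975). Position 79478108 of chromosome 17 (minus strand) had 20 and 17, with an interval of 0.418 to 1.71. The other 2 of the lowest 5 were on chromosome M. Over all shared positions, the 2 that were at least 2-fold lower with hairpin 2, named after their values were seen, were position 8037998 of chromosome 18 (minus strand; 16 and 4) and position 21301519 of chromosome 19 (plus strand; 21 and 3), each with a score of 4 or less in the hairpin 2 list.

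Where both lists held them, the mitochondrial positions had ratios from 0.694 to 2.55, with intervals above 1 at 6 and below 1 at 2. All were on the plus strand, along which both rRNAs and most mitochondrial mRNAs are read. Position 2241 had the highest score of the hairpin 1 list, 1608, and 2069 with hairpin 2, a ratio of 1.29 (interval 1.20 to 1.37). Position 11284 had 698 and 963 and position 4919 had 438 and 597, ratios of 1.38 and 1.36. Position 7733 had 224 and 344 and position 15680 had 161 and 210, ratios of 1.54 and 1.30. Position 14519 was the single one past 2-fold, with 121 and 308 (ratio 2.55, interval 2.06 to 3.17). The intervals at 4 positions held 1: 15535 (76 and 91), 1712 (151 and 164), 8680 (236 and 230) and 14400 (187 and 181). Position 10300 had 327 and 227 (ratio 0.694, interval 0.583 to 0.825) and position 2786 had 151 and 117 (0.775, 0.603 to 0.993), both lower with hairpin 2. Rebuilt C-to-T reads at 2241 were 58 to 61 of 1608 and 83 to 111 of 2069, a share of 3.61% to 3.79% with hairpin 1 and 4.01% to 5.36% with hairpin 2. The lists also had mitochondrial positions of their own: 12 positions were listed with hairpin 1 alone (scores of 3 to 791, median 85.5) and 14 with hairpin 2 alone (40 to 1585, median 106.5).

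A nuclear stretch on chromosome 2 had ratios near 1. Between positions 21224714 and 21242746 of the minus strand lay 8 positions, the most in any nuclear stretch joined by gaps of up to 10000 nt apart from the one on chromosome 1, and it is described for that reason, after the values were seen. Hairpin 1 had 6 of them and hairpin 2 had 5. The 3 shared ones had scores of 289 and 291 (position 21224714), 216 and 219 (21234077) and 37 and 44 (21233389), ratios of 1.01, 1.01 and 1.19. Each interval held 1, as did those of 46 of the 107 shared nuclear positions, and the interval at 21233389 ran from 0.751 to 1.89. With scores of at least 100 in both lists, 3 of 14 nuclear intervals held 1. These were at 21224714, 21234077 and position 91853097 of chromosome 1 (minus strand), with scores of 157 and 160. Hairpin 2 alone had position 21226173 (score 605, 6 rebuilt C-to-T reads) and 21242746 (19, 1 read). Hairpin 1 alone had 21230785 (148, 2 reads), 21230360 (92, 2 reads) and 21228739 (69, 1 read).

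The stretch between 564560 and 570153 of chromosome 1 (plus strand) had more positions and shared 0 of them. Hairpin 1 listed 6 positions there with scores of 3 to 39 and hairpin 2 listed 4 with scores of 26 to 919. Over all positions 24.7% of the hairpin 1 list and 17.1% of the hairpin 2 list were shared. So few positions cannot set the stretch apart from these shares. This end of chromosome 1 is known to carry a nuclear copy of mitochondrial DNA, so reads there and on chromosome M may not be told apart, and the authors' placing of such reads is not stated. The highest score was 919 at position 566994 with hairpin 2, with 25 rebuilt C-to-T reads, and the nearest hairpin 1 position, 25 nt away at 566969, had a score of 16.

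The rebuilt C-to-T share was mostly lower with hairpin 2 at the same base. Both read numbers had a single value at 102 shared positions. There the median share was 6.25% with hairpin 1 and 3.15% with hairpin 2, and it was lower with hairpin 2 at 73 positions, higher at 24 and equal at 5. A listed base has at least 1 changed read, so a lower score sets a higher floor on the share, and hairpin 1 had the lower scores. At the 39 positions with scores of 50 or more in both lists, the medians were 2.29% and 1.32%, and 32 positions were lower with hairpin 2. Of these, 10 had 1 changed read with hairpin 1 and 8 with hairpin 2, so the floor still acted there. With scores of 100 or more in both lists, 17 of 22 positions were lower and 5 higher with hairpin 2. A floor may act at these scores too. The last position by site number had a share of 0.847% with hairpin 1 (score 118) and 0.606% with hairpin 2 (score 165). Summed over the 39 positions with scores of 50 or more, 179 of 7619 reads were changed with hairpin 1 (2.35%) and 269 of 18103 with hairpin 2 (1.49%). The nuclear positions among them had 2.34% and 1.34%, with 26 of 30 lower, and the mitochondrial ones 2.36% and 2.14%, with 6 of 9 lower. With at least 2 changed reads in both lists, 34 of 47 positions were lower and 9 higher with hairpin 2. The fitted background rate was also lower with hairpin 2 (1.00% against 1.43%), and a lower background and less modification cannot be told apart from these shares. In numbers of changed reads the lists were closer: hairpin 2 had more at 41 of the 102 positions, hairpin 1 at 28, and 33 had the same number, 24 of them 1 read in both.

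**Figure D4:**
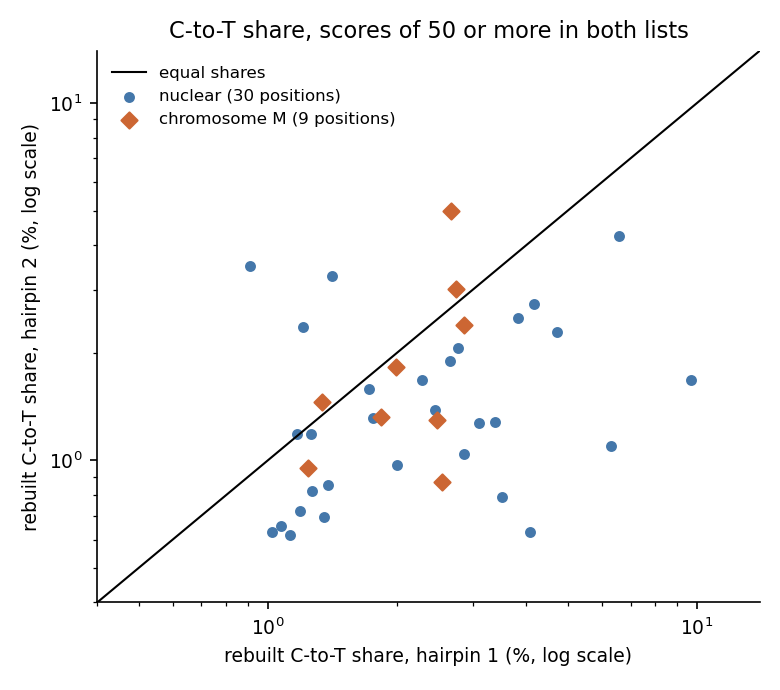
Rebuilt C-to-T share with hairpin 1 (horizontal) and hairpin 2 (vertical), both in percent on log scales, at the 39 shared positions with scores of 50 or more and a single read number in both lists. The line marks equal shares: 32 positions lie below it, 26 of the 30 nuclear and 6 of the 9 mitochondrial ones.

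Some of the deepest positions were listed with 1 hairpin only. With hairpin 1 alone, the 8 highest scores were 3 mitochondrial and 5 nuclear. Position 14194 of chromosome M had 791 with 10 rebuilt C-to-T reads (1.26%), position 6445 had 559 with 16 (2.86%) and position 13551 had 295 with 23 or 24. The nearest hairpin 2 bases were 14400 (score 181, 206 nt from 14194), 7733 (344, 1288 nt from 6445) and 13430 (158, 121 nt from 13551). Position 145694501 of chromosome 7 (plus strand) had 740 with 10 changed reads (1.35%) and lay between a pair of shallow hairpin 1 positions (scores of 6 and 4), while hairpin 2 had 0 positions in this stretch. The others were 216274788 on chromosome 2 (minus strand, score 299), 177631554 on chromosome 5 (plus, 277), 78109067 on chromosome 17 (minus, 239) and 237032992 on chromosome 2 (plus, 211). The last of these had a hairpin 2 position with a score of 59 at a distance of 65 nt.

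With hairpin 2 alone the 8 highest scores included 1 mitochondrial position. Position 70102028 of chromosome 10 (plus strand) had 2497, the second highest score of the hairpin 2 list, with 22 rebuilt C-to-T reads (0.881%). Position 31818633 of chromosome 16 (plus) had 1106 with 9 (0.814%) and 57187333 of chromosome 17 (minus) had 475 with 6 (1.26%). These shares lay on both sides of the 1.00% background rate fitted to this list. Position 1690 of chromosome M had 1585 with 23 changed reads (1.45%), while position 1712, 22 nt away and in both lists, had a score of only 164 with this hairpin. The others were 566994 on chromosome 1 and 21226173 on chromosome 2, described above, 113541473 on chromosome 13 (plus, score 427) and 789471 on chromosome 1 (plus, 380). Scores of 100 or more were held by 33 of the 363 positions of hairpin 1 alone and by 69 of the 578 of hairpin 2 alone. At the shallow end, 55 and 92 of these positions had the lowest score, 3, and a base with fewer reads is not listed. A base with many reads but too few changed ones may be unlisted too. Being in a single list is thus not a lack of reads with the other hairpin.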

How the data were processed

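m6A immunoprecipitates of HepG2 RNA were sequenced from stranded libraries. The build hg19 and the tools Bowtie 1.1.2, cutadapt 1.13 and FastQC 0.11.5 are listed per the submitters' processing notes. Site names contain "rbsSeeker", whose version, filters and pooling are not stated. The deposited lists hold 1 base per line with a score set by the authors, whose meaning no file states. Read totals were not used here. From these lists positions were matched, counted and compared by script. C-to-T reads were rebuilt as whole numbers that put all 482 and 697 sites in the order of their site numbers by binomial probability, at a background rate searched from 0.8% to 1.8%. A single number resulted at 97.7% and 97.0% of sites, and bounds at 11 and 21. The calculation was run on simulated lists ordered by the same binomial rule, with their background rate given to it. This checks the code and tests neither the search for the rate nor the reading of the score. With 1 pooled list per hairpin no p-value was computed. Score ratios have exact binomial intervals on reads without molecular identifiers, so they cover counting error only. Gene names, gene lists and base contexts were planned and not run, since no hg19 genome or annotation was used here, and no sequence is shown. Positions named by rule are the 10 shared with the highest geometric mean score, the 5 highest and 5 lowest ratios with both scores at least 10, and the 8 highest scores of each single list. Further positions, among them those of the stretches, other mitochondrial ones and those under the other observations, fall outside these rules. They were picked with their values known. Positions on chromosome Y are counted and not named. Members, lists and rules were chosen with earlier results of these data known. Python 3.11.15, numpy 2.4.6, scipy 1.17.1, pandas 2.3.3 and matplotlib 3.10.9 were used.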

Additional observations from a re-analysis of the deposited data

How the results depend on the processing

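Requiring a score of at least 10 left 256 positions with hairpin 1 and 419 with hairpin 2, and at least 20 left 194 and 317. Shared positions numbered 68 at scores of at least 20 and 64 with at least 2 rebuilt C-to-T reads in each list, an alternative added after seeing the data, and lay between 86 and 129 under the other settings for matching, merging, strand, score and chromosome M. The median score ratio of hairpin 2 to hairpin 1 was 1.52 when scaled by shared mitochondrial positions, that is, divided by 1.11. This factor is the ratio of their median scores, 228.5 with hairpin 2 and 205.5 with hairpin 1. It is smaller than the median of their ratios, 1.24, by which scores were not scaled. With the factor of 1.11, 49 positions were at least 2-fold higher and 2 at least 2-fold lower. The median ratio stayed above 1 in the 6 settings where it was recomputed, and the ratio of summed scores was 2.17. The share of positions on chromosome M was 8.20% and 10.3% with hairpin 1 at scores of at least 10 and 20, against 4.98% over the whole list, and 6.21% and 8.20% with hairpin 2, against 3.73%. The C-to-T share was lower with hairpin 2 at 71.6% of shared positions, and at 81.4% and 82.1% with scores of at least 20 and 50 in both lists, added after seeing the data. No paired analysis was possible because each hairpin has 1 pooled list, and leaving out replicates could not be done for the same reason. The planned gene and base-context alternatives were not run. Positions with 1 changed read were seldom shared at low scores. Under a score of 10, 11 of 155 such positions with hairpin 1 and 8 of 168 with hairpin 2 were in the other list. At scores of at least 100 these were 1 of 14 and 9 of 36.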

Other observations

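Unshared positions were seldom beside a position of the other list. Apart from the 119 shared bases, 0 positions of either list lay within 8 nt of a position of the other on the same strand, the smallest distance being 9 nt. With hairpin 1, 10 positions lay 9 to 50 nt away, 30 lay 51 to 1000 nt away and 321 lay further, and 2 had no hairpin 2 position on their chromosome strand. With hairpin 2, 15 lay 9 to 50 nt away, 31 lay 51 to 1000 nt away and 532 lay further. Joined over gaps of up to 1000 nt, the 1060 positions made 967 stretches, and 125 of them held both hairpins, 28.3% of the stretches with hairpin 1 and 19.2% of those with hairpin 2. In 18 of these 125 stretches the hairpins were at different bases.

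Some neighbouring bases had equal scores and others had very unlike ones. Positions 3976226 and 3976240 of chromosome 19 (minus strand) were both shared, and each had a score of 98 with hairpin 1 and 159 with hairpin 2. With hairpin 1 they had 4 and 1 rebuilt C-to-T reads and with hairpin 2 each had 1. By contrast, positions 2241 and 2253 of chromosome M, 12 nt apart, had scores of 2069 and 70 with hairpin 2. Positions 8680 and 8692, also 12 nt apart, had 230 and 73. Why a count of reads at a base would differ so over this distance was not tested, and the meaning of the score is not stated. On chromosome 14 (minus strand) position 38060488 was shared with scores of 131 and 179, while position 38060502, 14 nt away, had 179 with hairpin 2 and 3 changed reads there but was not in the hairpin 1 list. On chromosome 2 (plus strand) positions 20647898 (85 and 131) and 20647968 (15 and 36) were shared, and 20647867 had a score of 261 with hairpin 2 alone. On chromosome 7 (plus strand) position 94295179 had 95 and 273, and 6 and 3 changed reads, with 94294669 in hairpin 1 alone (score 69) and 94295320 in hairpin 2 alone (score 144).

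Bases with the change in nearly every read formed a small group. A C-to-T share of 90% or more was possible in both lists at 14 shared positions. The share was 100% in both at 3 of them: position 42864365 of chromosome 18 (minus strand, scores 7 and 6), 138918273 of chromosome 3 (minus, 3 and 3) and 38510531 of chromosome 17 (plus, 3 and 3). At deeper ones only bounds are known, such as 175843300 of chromosome 5 (minus), where 23 to 79 of 80 reads were changed with hairpin 1 and 34 to 167 of 167 with hairpin 2. Among positions with a single value of 90% or more, 9 of 27 with hairpin 1 were listed with hairpin 2 (33.3%, interval 16.5 to 54.0), and 4 of 56 with hairpin 2 were listed with hairpin 1 (7.14%, 1.98 to 17.3). Several of those 9 have only bounds with hairpin 2 and so are not among the 56. Counting every position where such a share is possible, 15 of 34 with hairpin 1 (44.1%, 27.2 to 62.1) and 15 of 73 with hairpin 2 (20.5%, 12.0 to 31.6) were in the other list.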
